A study of Homo sapiens with 12 samples.

Results

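This report follows 7 genes in 12 RNA sequencing libraries from the human colorectal cancer lines DLD1 and SW480: PSCA, ALPP, ALPPL2 (RefSeq symbol ALPG), KLK6, KLK7, KLK10 and CYP4F12. They are 7 of the 54261 gene symbols in the count table, and were picked by name because earlier results of these data had them low in untreated DLD1 cells and higher with lactate. The groups were DLD1 cells given lactate, DLD1 control cells, SW480 cells given lactate and SW480 control cells, with 3 biological replicates each per the series' design text. Both are established lines of colorectal adenocarcinoma cells, so each group is a model of 1 tumour's descendants, and the labels used here give no dose or duration of lactate. Because DLD1 values chose the genes, their DLD1 levels and fold changes are given as a description with no test, while SW480 gives the test that the choice did not use.

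The genes encode proteins that work at or outside the cell surface, with 1 exception. PSCA is a small surface protein of the Ly6/uPAR family, held in the membrane by a glycosylphosphatidylinositol (GPI) lipid anchor and known from prostate, bladder and upper digestive epithelium. ALPP and ALPPL2 are the placental and germ cell alkaline phosphatases, GPI-anchored enzymes that remove phosphate groups outside the cell. KLK6, KLK7 and KLK10 belong to the kallikrein-related peptidases, secreted serine protease-type proteins encoded side by side in 1 gene cluster. KLK7 is known for cutting the junctions between cells of the outer skin, and KLK6 for its activity in brain and tumours. The exception, CYP4F12, is a cytochrome P450 of the endoplasmic reticulum that hydroxylates fatty acids and some drugs.

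The genes lie at 4 places in the genome (GRCh38). ALPP (chr2:232378751-232382889, plus strand) and ALPPL2 (chr2:232406844-232410714, plus strand) are 23.95 kb apart. KLK6 (chr19:50958631-50969591), KLK7 (chr19:50976468-50984064) and KLK10 (chr19:51012739-51020097) are on the minus strand, with gaps of 6.88 kb and 28.67 kb. CYP4F12 (chr19:15673087-15697174, plus strand) is elsewhere on the same chromosome, and PSCA is on another. PSCA overlaps JRK on the opposite strand, and antisense genes overlap ALPP, KLK6, KLK7 and KLK10. Since the strand setting of the counting is not given in the sources used here, reads from such overlaps cannot be told apart.

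Promoters are shown for 2 pairs of neighbours whose levels differed, ALPP with ALPPL2 and KLK6 with KLK7. Each run is the 250 bases before the annotated start site on the gene's strand, from RefSeq on GRCh38.p14, for ALPP (chr2:232378501-232378750), ALPPL2 (chr2:232406594-232406843), KLK6 (chr19:50969592-50969841) and the most upstream start site of KLK7 (chr19:50984065-50984314). Capitals mark the GC box, GGGCGG or its reverse complement CCGCCC.
ALPP: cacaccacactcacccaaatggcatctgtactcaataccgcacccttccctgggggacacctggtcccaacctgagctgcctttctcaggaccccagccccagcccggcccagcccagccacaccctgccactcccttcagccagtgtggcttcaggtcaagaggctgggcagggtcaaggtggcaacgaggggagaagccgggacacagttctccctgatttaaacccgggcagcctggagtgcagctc
ALPPL2: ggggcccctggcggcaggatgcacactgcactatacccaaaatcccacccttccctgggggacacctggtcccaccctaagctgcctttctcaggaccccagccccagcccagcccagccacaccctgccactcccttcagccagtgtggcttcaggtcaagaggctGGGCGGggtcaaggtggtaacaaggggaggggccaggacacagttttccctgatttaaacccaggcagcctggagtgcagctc
KLK6: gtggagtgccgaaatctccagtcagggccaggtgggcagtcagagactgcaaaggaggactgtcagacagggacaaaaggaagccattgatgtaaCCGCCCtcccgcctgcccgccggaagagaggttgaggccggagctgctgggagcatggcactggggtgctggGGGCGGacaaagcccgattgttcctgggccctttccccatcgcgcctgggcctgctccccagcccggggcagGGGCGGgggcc
KLK7: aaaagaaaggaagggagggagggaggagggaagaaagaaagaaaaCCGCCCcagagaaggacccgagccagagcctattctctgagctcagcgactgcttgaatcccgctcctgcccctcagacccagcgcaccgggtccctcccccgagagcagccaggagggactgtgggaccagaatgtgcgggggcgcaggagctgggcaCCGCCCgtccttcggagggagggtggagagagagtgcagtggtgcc

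The ALPP and ALPPL2 promoters were identical at 86.4% of 250 aligned columns. ALPPL2 held 1 GC box, with its first base at -83 from the start site, and ALPP held none. KLK6 held GC boxes at -155, -83 and -11, and the KLK7 window shown held them at -205 and -46. Entries were found for 5 of the 7 genes, PSCA and CYP4F12 being the others. On both strands, the search also covered the AP-1 site TGANTCA, the hypoxia response core ACGTG, the E-box CACGTG, which contains that core, and the TATA box TATAAA. The 1 further match was ACGTG at -137 from the first KLK10 start site. Among 35116 RefSeq promoter windows of the same length, 42.6% held the GC box, 18.5% ACGTG, 10.7% TATAAA, 6.6% TGANTCA and 6.3% CACGTG.

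Library totals ran from 16517364 to 22662063 counts with lactate and 14928364 to 20150229 in control for DLD1, and from 14049106 to 19354661 with lactate and 12302311 to 17286493 in control for SW480. Levels are CPM, the counts of a gene scaled to the total of its library. Of the 12 colorectal epithelium markers, all had counts in DLD1. In SW480, KRT20 and CEACAM5 were at 0 with lactate, and KRT20 and CDX1 were at 0 in control. The list summed to 9518 to 10560 CPM in DLD1 lactate and 6531 to 9560 CPM in DLD1 control libraries. Its sums in SW480 were 1400 to 1665 CPM with lactate and 1949 to 2299 CPM in control. The 8 fibroblast markers summed to 10.2 to 12.2 CPM in DLD1 control and 251.1 to 264.4 CPM in SW480 control libraries. DLD1 control 2 and control 3 stood furthest from the other libraries of their group. Over 12035 genes, the log2 difference of a library from its group mates had an SD of 0.537 for control 2 and 0.442 for control 3, against at most 0.261 for the other libraries. Along transcript GC content it had Spearman's rho of -0.79 and 0.82 across genes. All 7 genes here have a transcript GC content above the median of tested genes, 48.9% to 62.8% against 48.5%. The DLD1 fold changes of the tested genes are therefore also given without each of these controls.

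The working description of the genes as low in untreated DLD1 cells held for 5 of 7. The median control level of the 17572 genes with enough counts to be tested was 15.4 CPM, and PSCA, ALPP, ALPPL2, KLK7 and CYP4F12 lay under it. KLK6 averaged 70.6 CPM and KLK10 48.6 CPM in DLD1 controls, above 80.4% and 72.3% of tested genes. Of the 59 genes called higher with lactate in DLD1, 24 had a control mean under 5 CPM, as had 6749 of all tested genes.

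**Figure D1:**
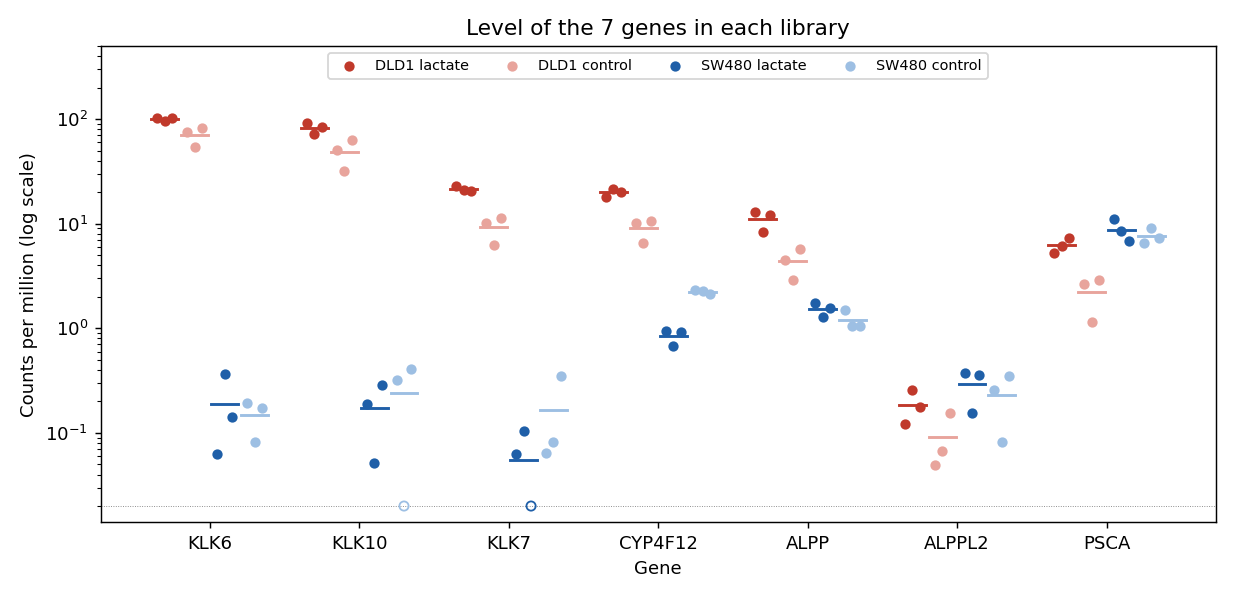
Level in CPM (log scale) of the 7 genes in each of the 12 libraries, with a line at the mean of each group of 3. Open circles on the dotted line are libraries with 0 counts. KLK6, KLK7 and KLK10 sit far higher in DLD1 than in SW480. PSCA, and ALPPL2 near the floor, do not have higher means in DLD1 than in SW480.

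The kallikrein-related peptidases were the most abundant of the genes in DLD1. KLK7 stood at 22.8, 21.1 and 20.5 CPM in the DLD1 lactate libraries, against 10.1, 6.30 and 11.4 CPM in DLD1 controls 1 to 3. All 3 lactate libraries lay above all 3 controls, and control 2 was the lowest. The log2 fold change was 1.19 (SE 0.22), 0.99 without control 2 and 1.35 without control 3.

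For KLK6 the levels were 103, 95.4 and 103 CPM in the DLD1 lactate libraries, against 75.9, 53.7 and 82.3 CPM in the controls. KLK10 had 91.9, 71.6 and 83.4 CPM with lactate, against 50.7, 31.6 and 63.4 CPM in control. Neither gene's groups overlapped, and their log2 fold changes were smaller than that of KLK7, at 0.49 (SE 0.15) for KLK6 and 0.74 (SE 0.22) for KLK10. Without control 2 they were 0.33 and 0.51, and without control 3 they were 0.60 and 0.96.

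Within a library, the share of each gene in all KLK counts does not depend on how libraries are scaled. KLK7 made up 9.21%, 9.73% and 8.59% of KLK counts in the DLD1 lactate libraries, against 6.33%, 5.88% and 6.07% in the controls. Exact 95% binomial intervals ran from 7.86% to 10.7% across the lactate libraries and from 4.78% to 7.23% across the controls. These intervals cover counting error only and are a description, since DLD1 values chose the genes. KLK6 made up 41.6% to 43.9% with lactate and 44.0% to 50.1% in control. KLK10 held 33.0% to 37.1% with lactate and 29.5% to 33.9% in control, which overlapped. For KLK6 the closest libraries of the 2 groups, at 43.9% and 44.0%, were within counting error of each other.

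In SW480 the same 3 genes were at the detection floor, which is 3 counts in a library, or 0.155 to 0.244 CPM. KLK7 had 1, 2 and 0 counts in the lactate libraries, against 1, 1 and 6 in controls. KLK6 had 1, 7 and 2 counts with lactate, against 3, 1 and 3 in control. KLK10 had 3, 1 and 4 counts with lactate, against 5, 0 and 7 in control. These genes entered the test only through DLD1, with 0 SW480 libraries past the filter. At such counts no fold is given, and the adjusted p from edgeR (0.362 for KLK7, 0.778 for KLK6 and 0.702 for KLK10) says nothing for or against a lactate effect in SW480.

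The other members of the cluster showed how far the high DLD1 levels reached. Per length, as CPM per kilobase of transcript (RPKM), KLK1 averaged 26.2 in DLD1 lactate and 19.9 in DLD1 control libraries, close to KLK10 with 26.5 and 15.6. KLK8, the gene between KLK7 and KLK10 among those tested, had only 19 counts in the 3 DLD1 lactate libraries and 5 in the controls. Of the 12 other KLK genes 5 were tested, and 0 were called in DLD1 and 0 in SW480. Their median log2 fold change in DLD1 was 0.38, beside 0.02 over all tested genes. No median is given for SW480, where KLK3, KLK14 and KLK15 had 1, 6 and 0 counts over the 3 lactate libraries, against 4, 8 and 1 in the controls. At an unadjusted p under 0.05, edgeR had 3253 of all tested genes in DLD1 and 4801 in SW480.

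**Figure D2:**
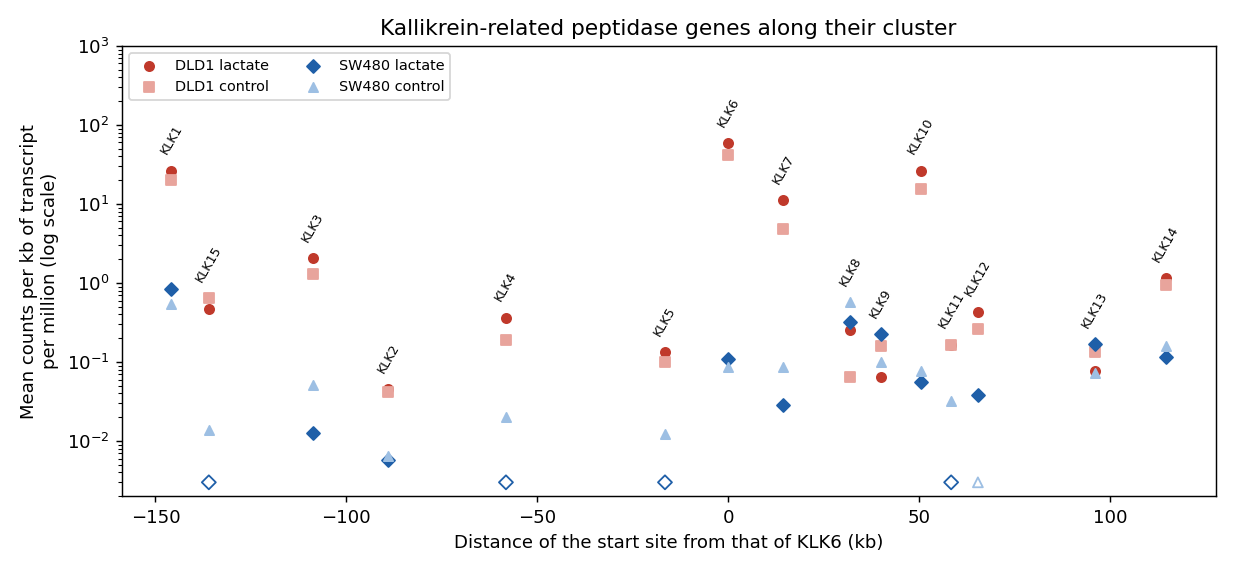
Mean level (RPKM, log scale) of the 15 KLK genes against the distance of their start sites from that of KLK6 in kilobases, for the 4 groups. Open symbols at the bottom are groups with 0 counts. In DLD1 the highest levels are those of KLK6, KLK10, KLK1 and KLK7, while KLK8, between KLK7 and KLK10, has 0.251 in lactate and 0.0637 in control libraries.

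Protease inhibitors with their family relatives, and targets of these proteases, were read from lists of known genes. Not every gene of the first list is known to block these proteases. In DLD1, 0.336% of all tested genes were called higher and 0.0455% lower. Of 14 tested genes on the first list, the 1 call there was SERPINB5 (maspin), a relative of protease inhibitors, which rose. It averaged 30.3 ± 2.18 CPM with lactate and 18.9 ± 1.15 CPM in control (SD, n = 3 each), with a log2 fold change of 0.65 (SE 0.09, edgeR adjusted p 0.00986). This call was lost without DLD1 lactate 1 (adjusted p 0.0642), lactate 2 (0.0598) or control 1 (0.0539). It was also lost with the line fitted alone (0.281).

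In SW480, 12.4% of tested genes were called, 6.83% higher and 5.59% lower. SERPINB5 rose there too, to 345.7 ± 14.3 CPM with lactate, against 243.7 ± 1.34 CPM in control (log2 0.53, SE 0.09, edgeR adjusted p 0.00167). SERPINB1, an inhibitor of elastase-type proteases, rose to 324.0 ± 13.0 CPM with lactate, against 208.5 ± 23.5 CPM in control (log2 0.66, edgeR adjusted p 0.0011). Both kept their call in every alternative. SERPINA3, antichymotrypsin, fell by 0.90 on the log2 scale (adjusted p 0.0328), a call lost without SW480 lactate 2 or 3 or any 1 SW480 control, with adjusted p of 0.0698 to 0.138.

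Among 10 tested receptors and substrates of these proteases, 0 were called in DLD1, while 2 rose and 2 fell in SW480. F2RL1, the receptor PAR2 that proteases switch on by cutting it, fell to 1.81 ± 0.25 CPM with lactate in SW480, against 3.48 ± 0.836 CPM in control (log2 -0.90, SE 0.20, edgeR adjusted p 0.00888; 0.0647 without SW480 control 1). SCNN1A, a subunit of the epithelial sodium channel, fell by 0.55 (adjusted p 0.0106), and lost the call without SW480 lactate 2 (0.0707), lactate 3 (0.0545) or control 1 (0.0593). The rises of PLAU (0.47, adjusted p 0.0409) and F2R (0.38, adjusted p 0.0458) were lost without 10 of the 12 libraries each, with adjusted p of up to 0.159 and 0.197, both without SW480 control 1.

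ALPP, the placental alkaline phosphatase, was the larger of the 2 phosphatase signals in every group. It stood at 12.8, 8.41 and 12.2 CPM in the DLD1 lactate libraries, against 4.52, 2.88 and 5.73 CPM in controls 1 to 3. The groups did not overlap and control 2 was again the lowest. Its log2 fold change was 1.31 (SE 0.23), 1.10 without control 2 and 1.54 without control 3. In SW480 it stood at 1.75, 1.29 and 1.57 CPM with lactate, against 1.48, 1.06 and 1.04 CPM in control. There the groups overlapped, with a log2 fold change of 0.37 (SE 0.32, edgeR adjusted p 0.496).

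ALPPL2 had 2, 5 and 4 counts in the DLD1 lactate libraries, against 1, 1 and 3 in controls. It had 6, 3 and 5 counts in the SW480 lactate libraries, against 4, 1 and 6 in controls. It was not tested, since no library reached the filter level of 0.592 CPM. ALPPL2 made up 1.66% of the counts of the pair in DLD1 lactate (exact 95% interval 0.832% to 2.95%) and 2.01% in DLD1 control libraries (0.655% to 4.62%). The shares in SW480 were 15.7% with lactate (8.88% to 25.0%) and 16.9% in control (8.76% to 28.3%). The open reading frames of the 2 genes were identical at 97.3% of aligned columns, and 43.9% of the 50-base windows of ALPP occurred unchanged in ALPPL2. How reads of such windows were counted is not given in the sources used here, so the split between both genes is uncertain.

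Other alkaline phosphatases could not be followed, as neither ALPI nor ALPL passed the filter. Of 15 placental trophoblast markers 3 were tested. In DLD1 0 were called, and in SW480 2 fell. These were HSD3B1, an enzyme of steroid synthesis (log2 -0.89, edgeR adjusted p 0.00311), and CGA, the shared subunit of glycoprotein hormones (log2 -1.54, adjusted p 0.0164), which lost its call without SW480 lactate 2 (0.0949), lactate 3 (0.0752) or control 1 (0.103). Beside ALPP, the summed level of the placental list was 4.90 to 5.75 CPM in DLD1 lactate and 3.15 to 4.67 CPM in DLD1 control libraries, with CGB3, ERVFRD-1, CSH1 and XAGE2 at 0 in both. This sum was higher in SW480, at 15.6 to 20.7 CPM with lactate and 29.2 to 32.9 CPM in control. Most of it was HSD3B1 alone, with 4.71 ± 0.602 CPM in DLD1 lactate and 3.39 ± 0.702 CPM in DLD1 control libraries. In SW480 HSD3B1 averaged 13.6 ± 2.47 CPM with lactate and 25.6 ± 1.37 CPM in control.

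PSCA (chr8:142670297-142682725, GRCh38, plus strand) was, of the 6 tested genes, the 1 whose mean level in SW480 was as high as in DLD1. In DLD1 it stood at 5.21, 6.14 and 7.24 CPM with lactate, against 2.68, 1.14 and 2.92 CPM in controls 1 to 3. The groups did not overlap, control 2 was the lowest, and the log2 fold change was 1.42 (SE 0.28), 1.14 without control 2 and 1.62 without control 3. In SW480 it had 11.0, 8.58 and 6.83 CPM with lactate, against 6.56, 9.02 and 7.23 CPM in control. These overlapped, with a log2 fold change of 0.25 (SE 0.26, edgeR adjusted p 0.579). JRK, which overlaps PSCA, had log2 fold changes of 0.18 (SE 0.10) in DLD1 and -0.24 (SE 0.11) in SW480, with neither called.

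Of 8 other tested Ly6/uPAR genes, 0 were called in DLD1 and 2 rose in SW480. These were CD59, which blocks the complement attack complex (log2 0.47, edgeR adjusted p 0.00461), and PLAUR, the urokinase receptor (log2 0.88, adjusted p 0.00503). Among 30 tested GPI-anchored surface proteins from other families, 1 rose in DLD1, and 6 rose and 2 fell in SW480. The DLD1 call was CEACAM5, a cell adhesion protein, with 4.87 ± 0.716 CPM with lactate and 1.33 ± 0.681 CPM in control (log2 1.82, SE 0.35, edgeR adjusted p 0.0467). It was lost without 10 of the 12 libraries, with adjusted p of up to 0.246 without DLD1 control 1. With the line fitted alone it was lost too (0.226).

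The SW480 calls with the smallest p were GAS1, a growth arrest protein, which fell by 1.12 on the log2 scale (edgeR adjusted p 7.15e-05), the complement regulator CD55 (log2 0.70, adjusted p 0.00106), the ephrin EFNA5 (log2 0.67, adjusted p 0.00177) and the NKG2D ligand ULBP1 (log2 1.01, adjusted p 0.00709; 0.0544 without SW480 control 1). Of 27 tested genes that make and attach the anchor, 0 were called in DLD1. In SW480, MPDU1 (log2 -0.72, edgeR adjusted p 0.00174) and PIGU (log2 -0.40, adjusted p 0.0401) fell. PIGU lost its call without 8 of the 12 libraries, with adjusted p of up to 0.178 without SW480 control 1, and with no filter (0.087).

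CYP4F12 was the gene whose lactate libraries lay on opposite sides of the controls in the 2 lines. In DLD1 it stood at 18.0, 21.7 and 20.0 CPM with lactate, against 10.1, 6.57 and 10.7 CPM in controls 1 to 3. All lactate libraries were above all controls, and the log2 fold change was 1.10 (SE 0.17), 0.92 without control 2 and 1.21 without control 3.

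In SW480 CYP4F12 fell to 0.936, 0.672 and 0.925 CPM with lactate, against 2.32, 2.28 and 2.14 CPM in control. All lactate libraries were below all controls, as for 21.9% of all tested genes in this line. The log2 fold change was -1.39 (SE 0.26, edgeR adjusted p 0.00401), from 41 counts in the 3 lactate libraries and 101 in the controls. It ranged from -1.23 to -1.47 over all alternatives, with adjusted p of 1.38e-04 to 0.0329. Only 3 of the genes, CYP4F12, PSCA and ALPP, had SW480 libraries past the filter, and CYP4F12 was the 1 called, where 12.4% of all tested genes were called.

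Its close relatives were not called in either line with all libraries. Of 5 other tested CYP4 genes 0 were called in DLD1 and 0 in SW480, with medians of 0.54 in DLD1 and 0.00 in SW480. CYP4F11, also a fatty acid hydroxylase, averaged 6.51 ± 0.242 CPM with lactate and 3.72 ± 0.419 CPM in control in DLD1 (log2 0.78, SE 0.16, edgeR adjusted p 0.0503). It passed the threshold in DLD1 in 7 of the 21 alternatives, with adjusted p of 0.00298 with no filter, 0.0469 with the stricter filter, 0.00307 with DESeq2, 0.0466 with a replicate block, 0.014 after GC and length correction, 0.0263 with both and 0.0122 without DLD1 control 3. In SW480 it averaged 35.1 ± 4.71 CPM with lactate and 43.5 ± 3.80 CPM in control (log2 -0.28, SE 0.13, adjusted p 0.169). Its lactate effects in the 2 lines differed by 1.06 (SE 0.20, edgeR adjusted p 0.0277), a call made for 0.728% of all tested genes. It was lost with limma-voom (0.0623) and without 8 of the 12 libraries: DLD1 lactate 1 (0.0919), 2 (0.0713) or 3 (0.088), DLD1 control 1 (0.0568), SW480 lactate 2 (0.0773) or 3 (0.0815), or SW480 control 1 (0.0925) or 3 (0.0915). CYP4F3, the nearest tested gene upstream of CYP4F12, had log2 fold changes of 0.54 (SE 0.19) in DLD1 and 0.27 (SE 0.28) in SW480. The reading frames of CYP4F12 and of CYP4F2, CYP4F3, CYP4F8 and CYP4F11 were identical at 83.8% to 86.6% of columns, and at most 0.3% of the 50-base windows of CYP4F12 recurred in 1 of them.

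**Figure D3:**
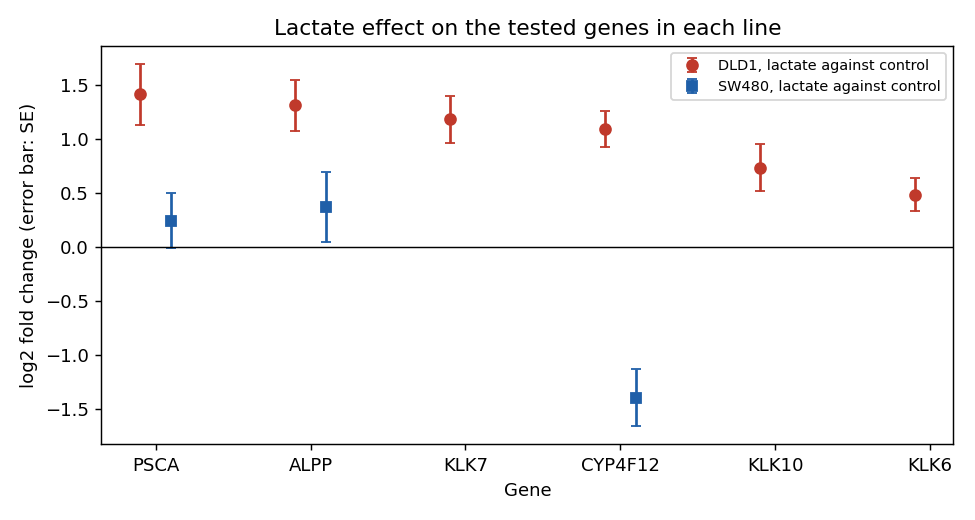
Log2 fold change of lactate against control (error bar: SE of the edgeR fit over 12 libraries) for the 6 tested genes in DLD1 and for the 3 of them above the floor in SW480. CYP4F12 is the gene with values on both sides of 0, at 1.10 in DLD1 and -1.39 in SW480.

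Over the set, all 6 tested genes had 3 DLD1 lactate libraries above 3 DLD1 controls, which held for 10.7% of all tested genes. Since this contrast chose the genes, nothing is read from that count or from their calls in DLD1. Those calls come from edgeR's test of that same contrast and are given as a description only. PSCA, ALPP, KLK7 and CYP4F12 were among the 59 genes called higher in DLD1 (0.336% of those tested), and KLK6 and KLK10 were not. All 4 lost that call when DLD1 was fitted alone, where 1 gene in all was called. They also lost it without DLD1 lactate 1, DLD1 lactate 3 or DLD1 control 1, and some of them without other single libraries. Over all tested genes 59 were called higher and 8 lower, and 331 higher and 276 lower after the trend along GC content and transcript length had been removed from each library.

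Per length, the order of the DLD1 levels was KLK6, KLK10, KLK7, CYP4F12, PSCA, ALPP and ALPPL2. With lactate the means were 58.9, 26.5, 11.2, 9.73, 6.07, 3.75 and 0.0743 RPKM in that order. In DLD1 controls they were 41.4, 15.6, 4.83, 4.46, 2.20, 1.47 and 0.0365 RPKM. KLK7 and CYP4F12 overlapped in the controls, as did PSCA and ALPP. SW480 had another order, led by PSCA with 8.62 ± 2.04 RPKM with lactate and 7.46 ± 1.25 RPKM in control. Next came ALPP with 0.517 and CYP4F12 with 0.413 RPKM with lactate, against 0.401 for ALPP and 1.10 for CYP4F12 in control. The other 4 genes averaged at most 0.118 RPKM with lactate and 0.0917 RPKM in control.

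Control 2 was the lowest of the 6 DLD1 libraries for all 6 tested genes. Relative to the other controls it had a median log2 difference of -0.76 over these genes, with a range of -1.20 to -0.54. Control 3 had 0.55, with a range of 0.34 to 0.67. Across all tested genes with a known GC content, the DLD1 log2 fold change followed GC content with Spearman's rho of 0.57, and that of SW480 with 0.06. Genes are not independent replicates, so these are descriptions. After removal of the trend along GC content and length, the DLD1 log2 fold changes were 1.20 for PSCA, 1.04 for ALPP, 1.20 for KLK7, 0.94 for CYP4F12, 0.60 for KLK10 and 0.32 for KLK6. A lactate effect that itself runs along GC content is removed with it.

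**Figure D4:**
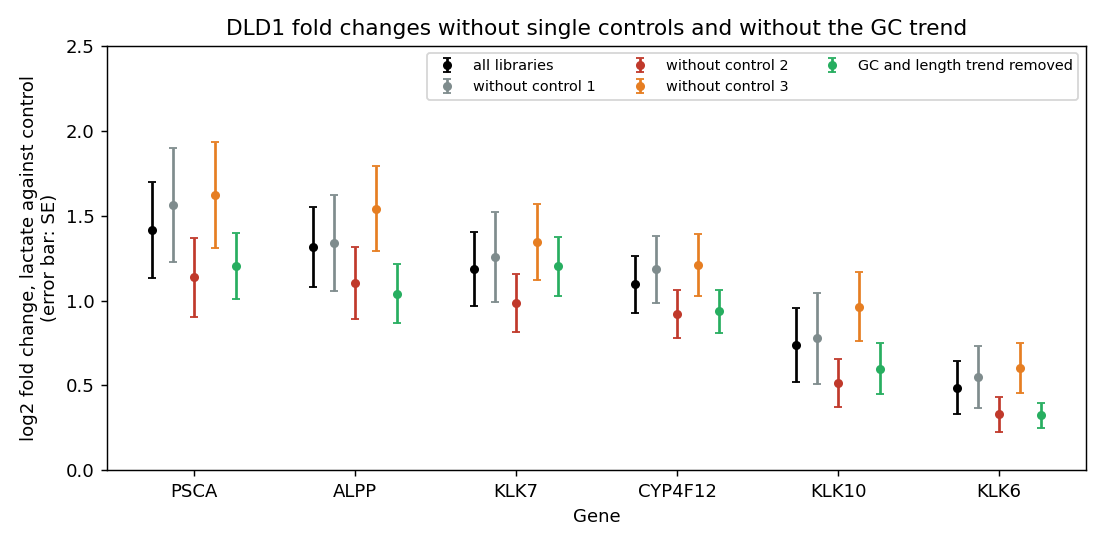
Log2 fold change of lactate against control in DLD1 (error bar: SE) for the 6 tested genes with all libraries, without each DLD1 control in turn, and after removal of the GC and length trend. All values stay above 0, and for PSCA they run from 1.14 without control 2 to 1.62 without control 3.

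Genes with the most similar course were sought over the 6 DLD1 libraries among 11271 other protein coding genes. Likeness was the root mean square difference from the median profile of the 6 tested genes, in log2 units. The closest were DAPK2, a protein kinase (0.0971), TMEM63C, an ion channel (0.101), PIK3IP1, an inhibitor of PI3 kinase (0.111), MST1, a growth factor related to HGF (0.117), AQP3, a water and glycerol channel (0.122), and CBLN3, a secreted protein (0.142). The 6 genes themselves were at 0.0984 for KLK7 to 0.293 for PSCA. Each of them helped to set the median profile, so their distances and ranks are a description only. By this distance KLK7 ranked 2 among the tested genes, but KLK6 ranked 448 and PSCA 461. In SW480, whose libraries played no part in this choice, AQP3 rose to 6.50 ± 0.262 CPM with lactate, against 3.38 ± 0.109 CPM in control (SD, n = 3 each; log2 0.97, SE 0.20, edgeR adjusted p 0.00571). PIK3IP1 rose by 0.82 (SE 0.22, adjusted p 0.0258) and lost the call without SW480 lactate 1 (0.053), lactate 2 (0.0835), lactate 3 (0.061), control 1 (0.147) or control 2 (0.0531). The other 4 had log2 fold changes of -0.49 to 0.50 there and were not called.

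**Figure D5:**
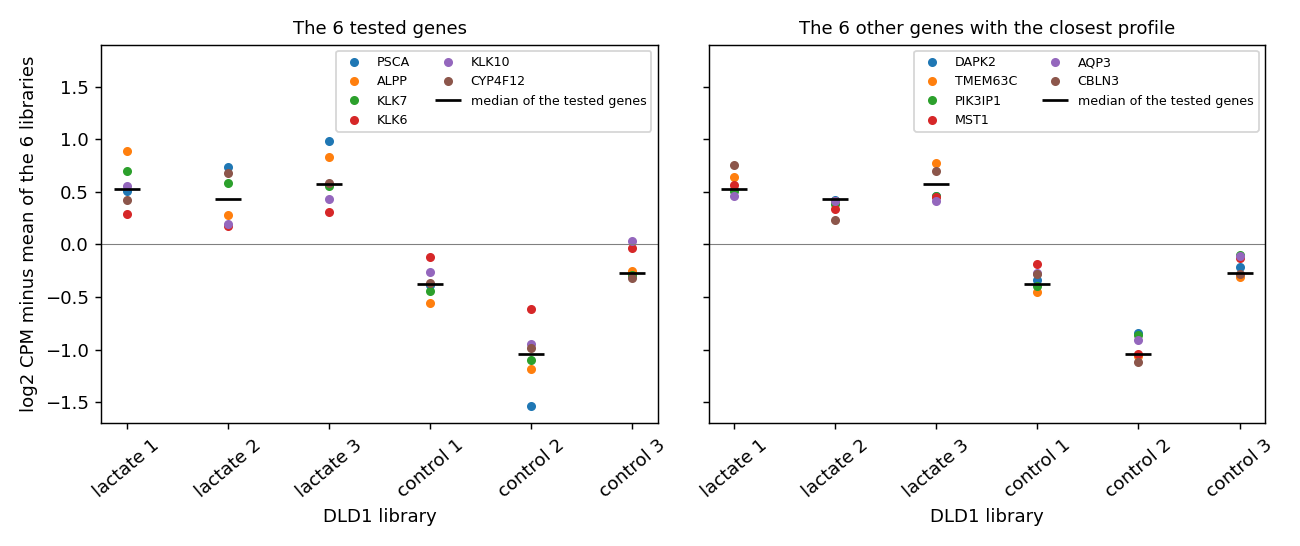
Log2 CPM of each DLD1 library minus the mean of the 6 libraries, for the 6 tested genes (left) and the 6 other genes with the closest profile (right). Black bars are the median of the tested genes. In both panels the 3 lactate libraries lie above 0 and control 2 is the lowest.

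The nearest tested genes on each chromosome were also read. Of 17 neighbours, up to 2 on each side of each gene, 0 were called in DLD1. Their median log2 fold change was 0.54, beside 0.02 over all tested genes. It includes genes with few counts, such as LY6K (2 in the DLD1 lactate libraries, 0 in control) and KLK8 (19 and 5). Around ALPP and ALPPL2 the values ran from -0.02 (EIF4E2) to 0.19 (COPS7B). Around CYP4F12 they ran from 0.54 (CYP4F3) to 0.98 (OR10H1, SE 0.60). OR10H1 was low, at 0.568 CPM with lactate and 0.303 CPM in control. In SW480, ARC, an immediate early gene (log2 1.95, edgeR adjusted p 0.00448), and TIGD1 (log2 0.52, adjusted p 0.0394) rose. THEM6 fell there (log2 -0.75, adjusted p 0.0311). TIGD1 lost its call without 8 of the 12 libraries, with adjusted p of up to 0.187, and THEM6 without 4, with up to 0.154, both without SW480 control 1.

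Markers of other tissues were read beside these results, since KLK7, PSCA and ALPP are known from other epithelia and from placenta. In bulk libraries, fewer cells of a type and less RNA per cell cannot be told apart. The 23 stratified epithelium markers summed to 32.5 to 37.5 CPM in DLD1 lactate and 22.4 to 37.6 CPM in DLD1 control libraries, with SPRR2A, S100A7 and CRNN at 0 in both. They summed to more in SW480, at 156.9 to 193.6 CPM with lactate and 180.0 to 188.2 CPM in control. KRT10 was the largest part of these sums in both lines. In DLD1 it held 21.8 ± 1.91 CPM with lactate and 20.2 ± 5.03 CPM in control. In SW480 it held 103.8 ± 7.62 CPM with lactate and 106.5 ± 4.33 CPM in control. KRT6A followed in SW480, with 57.1 ± 9.97 CPM with lactate and 68.4 ± 2.26 CPM in control. Of the 9 tested, KRT6A, a keratin of stressed epidermis, rose in DLD1. It had 41 counts in the 3 lactate libraries and 4 in the controls (log2 3.11, SE 0.55, edgeR adjusted p 0.0289). The call was lost without DLD1 lactate 1 (0.151), lactate 2 (0.0772), lactate 3 (0.0888) or control 1 (0.0714), with limma-voom (0.064) and with the line fitted alone (0.269).

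The 8 leukocyte markers summed to 10.8 to 13.5 CPM in DLD1 lactate and 3.55 to 8.96 CPM in DLD1 control libraries, with PTPRC and NKG7 at 0 in both groups. The largest part of the sum was CD68, a lysosomal protein of macrophages that other cells also make. It had 9.73 ± 1.72 CPM with lactate and 4.38 ± 1.88 CPM in control (SD, n = 3 each). Its log2 fold change was 1.10 (edgeR adjusted p 0.098, under the threshold in 5 of 21 alternatives). CD14 followed with 2.74 ± 0.333 CPM with lactate and 2.10 ± 0.878 CPM in control. In SW480 they summed to 90.9 to 110.5 CPM with lactate and 35.3 to 55.8 CPM in control, of which CD68 held 95.4 ± 9.12 CPM with lactate and 39.6 ± 9.86 CPM in control (log2 1.30, edgeR adjusted p 0.00218). Summed levels of the 5 endothelial markers were 4.12 to 4.46 CPM in DLD1 lactate and 1.74 to 2.60 CPM in DLD1 control libraries, with CLDN5 at 0. Of these sums VWF alone held 4.02 ± 0.0764 CPM with lactate and 1.76 ± 0.507 CPM in control (log2 1.16, edgeR adjusted p 0.154). Their part in the results was not tested. Among 9 tested genes of the list of mucins and trefoil factors, 0 were called in DLD1. In SW480, MUC13 rose (log2 0.76, edgeR adjusted p 0.00184) and AGR2, a folding factor for mucins, fell (log2 -1.11, adjusted p 1.84e-04).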

How the data were processed

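RNA from 12 samples (Trizol, total RNA, Illumina libraries per the labels' protocols) was sequenced. The submitters' processing notes name HISAT2 and GRCh38. Versions, the counting program, its gene models and strandedness were not given in the sources used here. The authors deposited raw counts per gene symbol, 12302311 to 22662063 per library, which limits low genes to the floors given above. Columns were matched to libraries by title.

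Tests used edgeR 4.0.16 under R 4.3.3 (filterByExpr by group, TMM scaling, 1 robust quasi-likelihood model over 12 libraries, two-sided contrasts, Benjamini-Hochberg adjustment over 17572 genes). A gene is called at an adjusted p under 0.05. CPM and RPKM use library totals, and RPKM 1 annotated transcript per gene (GENCODE). Scripts were tested on simulated data. The members and lists were chosen with earlier results of these data known. Named were all 7 genes, up to 4 called genes per list and line with the smallest p, the 6 genes closest in profile and 2 neighbours per side. Alternatives were DESeq2 1.42.0, limma-voom (limma 3.58.1), other scaling and filters, a replicate block, each line alone, GC and length correction (GC known for 87.7% of tested genes) and leaving out each library. Replicates of a group differed beyond sampling noise.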

Additional observations from a re-analysis of the deposited data

Results flagged for a closer look

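Several lactate effects differed between the lines, as DLD1 minus SW480 on the log2 scale. For CYP4F12 the difference was 2.49 (SE 0.31), with all 3 lactate libraries above all controls in DLD1 and below all controls in SW480; since DLD1 values chose this gene, no test of the difference is given. Over all alternatives that gave a value it ran from 2.30 to 2.60. Of all tested genes, 0.728% were called for a difference by edgeR.

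Genes named beside it were also called for the difference by edgeR's test. KRT6A differed by 3.34 (adjusted p 0.0168), on 41 counts in DLD1 lactate and 4 in DLD1 control libraries. HSD3B1 differed by 1.33 (adjusted p 0.0254), SCNN1A by 1.11 (0.0143), CYP4F11 by 1.06 (0.0277), AGR2 by 1.04 (0.0188) and SERPINB1 by -0.79 (0.0228). Each of these 6 calls was lost when some single libraries were left out, SW480 control 1 among them, without which the adjusted p was 0.068 for KRT6A, 0.0866 for HSD3B1, 0.068 for SCNN1A, 0.0925 for CYP4F11, 0.0806 for AGR2 and 0.0901 for SERPINB1. The CYP4F11 call was also lost with limma-voom (0.0623).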

How the results depend on the processing

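The fall of CYP4F12 in SW480 was called in all 21 alternatives, and PSCA and ALPP were called there in 0 of them. KLK6, KLK7 and KLK10 were too low in SW480 for their lack of calls to show stability. Counts over all genes moved more. In DLD1, 67 genes were called with all libraries, 855 with no filter, 684 with DESeq2, 607 after GC and length correction and 1 with the line alone, and leaving out single libraries gave 3 (without control 1) to 3791 (without control 3). For the difference between lines, 128 genes were called, 837 with no filter, 719 with DESeq2 and 1431 after GC and length correction, with 9 to 1508 when single libraries were left out. In SW480, 2183 were called, 5016 after GC and length correction and 4783 with the line alone, with 689 to 4347 when single libraries were left out (689 without control 1). The causes were not tested.

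Lactate and control libraries share replicate numbers. Same-numbered libraries deviated together with correlations of -0.169 to 0.273, over 0.1 in 3 of 6 pairs. Not every library correlated best with its own number. Such correlations, from groups of 3, cannot tell whether the numbers pair the libraries. With a replicate block, 184 genes were called in DLD1, 2345 in SW480 and 274 for the difference. With the block and the GC and length correction together the counts were 566, 4874 and 1306. CYP4F12 in SW480 stayed called in both. Fitting each line alone gives no test of the difference.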
